A study of Mus musculus with 24 samples.

Results

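The libraries described here are RNA-seq profiles of CD8 T cells that had spent 8 h beside melanoma cells carrying shFto-2, a hairpin against the gene Fto, set against T cells beside tumour cells with the control hairpin shNC. They were chosen by their labels in the T cell count table: 2 libraries beside shFto-2 and 2 beside shNC, of 24 samples in the series, with all genes of the table. In every group the T cells were OT-I cells, which carry 1 transgenic receptor for an ovalbumin peptide, on the C57BL/6 background. They were purified as naive CD8+ cells, co-cultured in medium with IL-2 and then sorted by flow cytometry. The tumour cells were B16-OVA, a mouse melanoma line that carries ovalbumin, grown under puromycin with the shFto-2, shFto-1 or shNC hairpin. A further 2 T cell libraries beside shFto-1, a separate hairpin line against the same gene, helped to estimate the spread and are used to say where values beside shFto-2 differ. The hairpin was in the tumour cells and not in the T cells. Nothing in the labels ties the 2 libraries of a group to different cultures or mice. The p-values therefore cover the spread between libraries alone, and that spread may be technical.

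FTO removes N6-methyladenosine (m6A), a methyl mark on messenger RNA. Naive CD8 T cells that meet their antigen leave a resting state kept by factors such as TCF7, LEF1 and FOXO1 and by signals through the interleukin 7 receptor. Within hours they switch on MYC, ribosome production, amino acid uptake and nucleotide synthesis. Later they make granzymes, perforin and cytokines, and raise inhibitory receptors such as PD-1 and LAG-3, which mark activation as well as exhaustion.

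Levels are given in CPM, a gene's count scaled to 1e+06 counts per library with TMM-adjusted library sizes, in the order of replicates 1 and 2. Total counts were 9294666 and 6549224 beside shFto-2, 13066355 and 5166653 beside shFto-1, and 2628158 and 6567685 beside shNC. The table held 24421 genes, of which 12824 passed the expression filter and were tested. The common biological coefficient of variation was 0.199, estimated with 3 residual degrees of freedom. The first principal component held 47.7% of the variance and separated the shFto-2 libraries (-52.3 and -25.6) from the shNC ones (95.2 and 34.1), with shFto-1 at -58.8 and 7.41, but its order within each group also followed depth. In a fit without the deepest shFto-2 and the shallowest shNC library, which leaves replicate 2 of each at nearly equal depth, 3990 genes passed, and 3536 of them were among the 4322 of the full fit. There the lone libraries are assumed to vary like the shFto-1 pair.

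Beside shFto-2, 4322 of the 12824 genes differed from shNC at an adjusted p under 0.05 (33.7%, edgeR quasi-likelihood F test). Of these, 2616 were higher (20.4% of all tested) and 1706 lower (13.3%), and 841 and 716 of them changed at least 2-fold. The split depends on scaling. With library totals in place of TMM the median over all genes, on the log2 scale, was -0.201 in place of -0.026, and 1906 genes were higher and 2344 lower. With a filter at a mean of 10 CPM, 2183 were higher and 2159 lower. Directions of small changes are therefore relative to the TMM scale, and values with library totals stand below for the lists whose count or median they move by over 1.5 times, as do values without 1 library. The shares of 20.4% higher and 13.3% lower are the background for each list's counts. Shares near them say nothing about a list. Groups described below as not overlapping are separate in their 2 libraries each. The share of all genes so separated is not given, so separation adds no support to a call. Against shFto-1, 245 genes differed (1.91%), 63 higher (0.491%) and 182 lower (1.42%). Without shFto-1 replicate 1, 1 gene passed, and 1352 had an unadjusted p under 0.05, against 2095 in the full fit. Single differences were not all smaller there: Mx1 was at 1.75 on the log2 scale, against 1.55 in the full fit, Ccl2 at 1.38 against 1.33, and Dgat1 at -0.962 against -1.51. The count was 507 without shFto-2 replicate 1, 68 without shFto-2 replicate 2 and 380 without shNC replicate 1. Between shFto-1 and shNC, which share the shNC libraries with the comparison above, 2853 genes differed (22.2%), 1976 higher (15.4%) and 877 lower (6.84%).

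**Figure D1:**
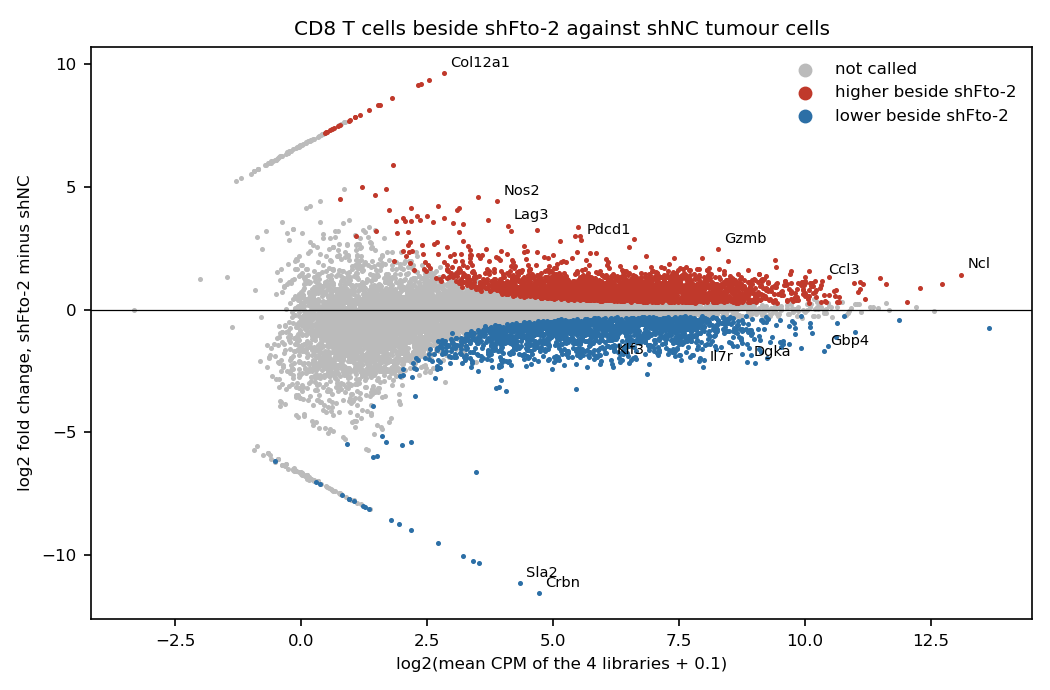
Each point is 1 of 12824 tested genes, with its log2 mean CPM over the 4 libraries on the x axis and its log2 fold change, shFto-2 minus shNC, on the y axis. Red and blue mark the 2616 higher and 1706 lower genes. The diagonal lines of points at the left are genes with no counts in 1 group, whose fitted fold changes are no measure of size.

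The label CD8 T cell held in the data. All 10 tested identity markers were detected in each of the 6 libraries, with a summed level of 2395 and 2292 CPM beside shFto-2, 2793 and 2668 CPM beside shFto-1, and 3028 and 2749 CPM beside shNC. In tumour cells the same 10 genes summed to 6.82 CPM (shFto) and 4.87 CPM (shNC). Cd8a, a chain of the CD8 coreceptor, had 275 and 239.8 CPM beside shFto-2, against 369 and 351 CPM beside shNC (log2 fold change -0.48 with SE 0.100, edgeR adjusted p = 0.00426). Cd3e, a signalling chain of the T cell receptor complex, had 161 and 133 CPM beside shFto-2, against 218 and 241 CPM beside shNC (log2 fold change -0.64 with SE 0.136, edgeR adjusted p = 0.00459). The shFto-2 values lay below both shNC values for each gene. In all, 2 of the 10 markers were higher (20%, against 20.4% of all tested genes) and 8 lower (80%, against 13.3%), with a median log2 fold change of -0.594. The higher markers were Cd5, a receptor that dampens antigen receptor signals (0.98), and Thy1, a surface glycoprotein of T cells (0.36). Without shFto-2 replicate 2, or with library totals, 1 marker was higher. In bulk samples, fewer cells of a type and less RNA per cell cannot be told apart.

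Tumour transcripts were present in every T cell library. The 13 pigment cell markers summed to 1738 and 1984 CPM beside shFto-2, 2024 and 1841 CPM beside shFto-1, and 1371 and 1752 CPM beside shNC, and the shFto-2 and shNC sums overlap. In tumour cells they summed to 24500 CPM (shFto) and 19120 CPM (shNC). The labels do not say which of the 2 hairpin lines the shFto tumour cells were, so shFto-2 T cells may be set against the other line here. On that scale the T cell libraries held 7.09% and 8.10% of the summed tumour level beside shFto-2 and 7.17% and 9.16% beside shNC. Single markers ranged from 0% (Slc24a5) to 32.9% (Mcam) beside shFto-2 and from 0% to 59.7% (both Oca2, in different libraries) beside shNC. Of the 13, 3 were higher beside shFto-2 (23.1%, against 20.4% of all genes) and 1 was lower (7.69%, against 13.3%). The median was 0.0995. Pmel, a melanosome matrix protein, had 174 and 201 CPM beside shFto-2, against 38.9 and 43.3 CPM beside shNC (log2 fold change 2.17 with SE 0.127, edgeR adjusted p = 1.53e-05), and tumour levels were 3751 and 2932 CPM (shFto and shNC). Tyr, the enzyme tyrosinase, had 19.3 and 13.2 CPM beside shFto-2, against 5.00 and 3.08 CPM beside shNC (log2 fold change 2.11 with SE 0.355, edgeR adjusted p = 0.00121), with tumour levels of 199.6 and 77.0 CPM in the same order. Tyrp1, a related enzyme, was higher (0.69), and Mlana was lower (-0.56). Without shFto-2 replicate 2, 2 markers were lower. The median was not stable in sign, at -0.0754 with library totals, 0.377 without shFto-2 replicate 1, -0.113 without shFto-2 replicate 2 and 0.226 without shNC replicate 2.

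Among markers of other blood cells, 9 of 21 passed the filter, and the 21 summed to 31.1 and 26.5 CPM beside shFto-2, against 28.9 and 19.2 CPM beside shNC. Only Cd74, the invariant chain of MHC class II, passed the test among the 9, with 9.33 and 8.77 CPM beside shFto-2, against 0.357 and 2.10 CPM beside shNC. Of the 21, 15 had counts in at least 1 shFto-2 library, and Cd4, Cd79a, Csf1r, Klrb1c, Hbb-bs and Hba-a1 had none in either. The macrophage marker Cd68 had 5.40 and 5.90 CPM beside shFto-2, against 1.79 and 2.94 CPM beside shNC, and did not pass (1.22, edgeR adjusted p = 0.259). The monocyte marker Cd14 had 0.899 and 1.12 CPM beside shFto-2, against 3.57 and 1.96 CPM beside shNC (-1.43). The B cell marker Ms4a1 had 0.674 and 1.28 CPM beside shFto-2, against 2.50 and 2.38 CPM beside shNC (-1.32), and neither it nor Cd14 passed. The median of the 9 tested was -0.00305, and lay between -0.592 (without shFto-2 replicate 1) and 0.293 (without shNC replicate 1) when 1 library was left out. Of 10 fibroblast, endothelial and epithelial markers, 4 were tested and 1 was lower, Pecam1 (47.4 and 30.0 CPM beside shFto-2, against 144 and 111 CPM beside shNC), an adhesion molecule that T cells also carry. The 10 summed to 52.6 and 39.1 CPM beside shFto-2, against 162 and 130.0 CPM beside shNC. Xist, the only tested gene of 6 sex-linked ones, did not pass in the full fit (log2 fold change -0.15 with SE 0.118, edgeR adjusted p = 0.403). Its value was -0.427 in the equal-depth fit. Whether cells or RNA from other types take part in the results below was not tested. Tumour levels are given for some genes only, and a gene without one may be a tumour transcript too. Npm1, for example, stood at 1600 and 1489 CPM in shFto and shNC tumour cells, and Hsp90ab1 at 6269 and 6034 CPM. Among the 2306 tested genes under 1 CPM in both tumour groups, 371 passed (16.1%), 124 higher (5.38%) and 247 lower (10.7%).

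**Figure D2:**
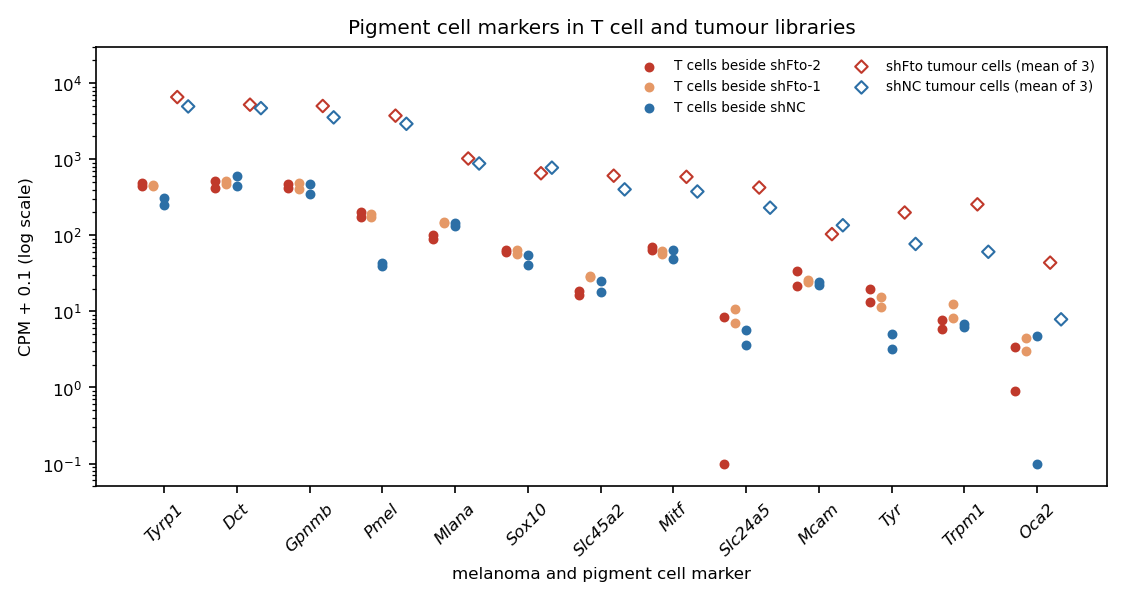
The 13 pigment cell markers on the x axis, with CPM plus 0.1 on a log y axis. Filled points are the 2 T cell libraries beside shFto-2, shFto-1 and shNC, and open diamonds are means of 3 tumour libraries, shFto and shNC. The summed T cell levels, 1371 to 2024 CPM, lie well below the tumour sums of 24500 and 19120 CPM, although single markers such as Oca2 in shNC replicate 1 come nearer, and Pmel and Tyr separate shFto-2 from shNC.

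Fto itself was not the target of the hairpin in the T cells. It had 50.0 and 50.5 CPM beside shFto-2, 42.5 and 38.7 CPM beside shFto-1, and 36.1 and 47.1 CPM beside shNC. The difference from shNC did not pass (log2 fold change 0.24 with SE 0.150, edgeR adjusted p = 0.264). In tumour cells Fto lay at 31.2 and 103 CPM in shFto and shNC libraries.

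Effector molecules of killer T cells were more often higher than lower beside shFto-2. Of 20 tested, 11 were higher (55%) and 4 lower (20%), with a median log2 fold change of 0.571 against -0.026 over all genes. Gzmb (chromosome 14, 56258836 to 56262334, RefSeq GRCm38.p6) encodes granzyme B, a protease that T cells release into their targets. It had 542 and 509.7 CPM beside shFto-2, against 91.8 and 98.1 CPM beside shNC (log2 fold change 2.46 with SE 0.0995, edgeR adjusted p = 5.91e-06), and tumour cells had none. Prf1, the pore-forming perforin, had 90.5 and 88.2 CPM beside shFto-2, against 13.9 and 20.97 CPM beside shNC (log2 fold change 2.28 with SE 0.170, edgeR adjusted p = 2.26e-05). In neither gene did the groups overlap, and both were also above their shFto-1 levels of 283 and 270.4 CPM and 44.2 and 41.9 CPM (0.93 and 1.05, edgeR adjusted p = 0.0186 and 0.0222). Gzmc, a further granzyme, stood at 6.18 and 8.45 CPM beside shFto-2, against 1.43 and 0.140 CPM beside shNC (log2 fold change 3.61 with SE 0.833, edgeR adjusted p = 0.00731), near the lower end of what these depths measure.

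Serpinb9, an inhibitor that protects killer cells from their own granzyme B, had 293 and 267 CPM beside shFto-2, against 84.3 and 88.8 CPM beside shNC (log2 fold change 1.69 with SE 0.112, edgeR adjusted p = 1.88e-05). The chemokine gene Ccl3 had 1958 and 1635 CPM beside shFto-2, against 840.3 and 749 CPM beside shNC (log2 fold change 1.18 with SE 0.108, edgeR adjusted p = 4.33e-05). Ccl4, a close relative of Ccl3, had 1577 and 1686 CPM beside shFto-2, against 937 and 858 CPM beside shNC (0.86). All 3 were higher in both shFto-2 libraries than in either shNC library. Ifng, which encodes interferon gamma, was also higher, with 2041 and 1808 CPM beside shFto-2, against 1179 and 1117 CPM beside shNC (log2 fold change 0.75 with SE 0.0907, edgeR adjusted p = 0.000178). The chemokine gene Xcl1 had 544 and 434 CPM beside shFto-2, against 181 and 241 CPM beside shNC (1.201), and the granule protein gene Nkg7 had 104 and 101 CPM beside shFto-2, against 36.8 and 41.8 CPM beside shNC (1.36). Il2 and Lta, a cytokine of the tumour necrosis factor family, rose by less (0.48 and 0.66).

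The effector genes that fell were cytokines and a chemokine. Tnf, tumour necrosis factor, had 96.3 and 106 CPM beside shFto-2, against 207 and 163 CPM beside shNC (log2 fold change -0.86 with SE 0.127, edgeR adjusted p = 0.000526). Ltb, which encodes lymphotoxin beta, had 67.8 and 49.7 CPM beside shFto-2, against 148 and 149 CPM beside shNC (log2 fold change -1.33 with SE 0.142, edgeR adjusted p = 9.06e-05). Csf2, the growth factor GM-CSF, had 24.7 and 27.7 CPM beside shFto-2, against 49.3 and 41.9 CPM beside shNC (log2 fold change -0.78 with SE 0.146, edgeR adjusted p = 0.00217). The groups did not overlap for these genes, and all 3 were also below their levels beside shFto-1 (log2 differences -0.62, -0.91 and -0.90, edgeR adjusted p = 0.0448, 0.0222 and 0.0222). The chemokine Ccl5 fell by less (-0.33, edgeR adjusted p = 0.0407). Gzma, Gzmm, Fasl, Tnfsf10 and Srgn did not pass.

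**Figure D3:**
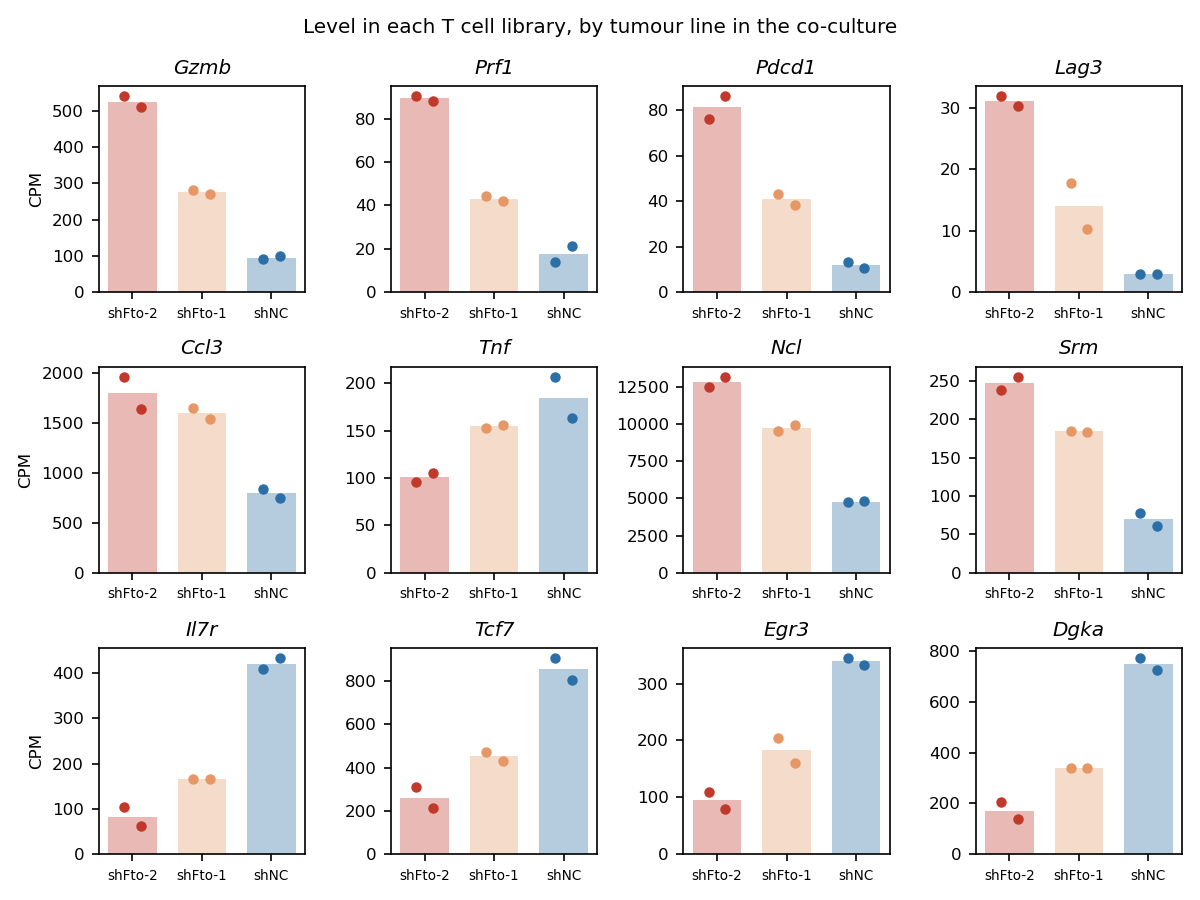
CPM on the y axis in each T cell library, by tumour line on the x axis, with bars at the mean of 2 libraries and points for the libraries. Gzmb, Prf1, Pdcd1, Lag3, Ccl3, Ncl and Srm are higher beside shFto-2 than beside shNC, and Tnf, Il7r, Tcf7, Egr3 and Dgka are lower.

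Inhibitory receptors moved in both directions. Of 13 tested, 6 were higher (46.2%) and 3 lower (23.1%), with a median of 0.339. The median was 0.164 with library totals, 0.658 without shFto-2 replicate 2 and 0.565 without shNC replicate 1. Pdcd1 (chromosome 1, 94038305 to 94052553), which encodes PD-1, had 76.3 and 86.4 CPM beside shFto-2, against 13.2 and 10.5 CPM beside shNC (log2 fold change 2.83 with SE 0.169, edgeR adjusted p = 1.53e-05). Lag3, a receptor related to CD4 that binds MHC class II, had 32.0 and 30.5 CPM beside shFto-2, against 2.86 and 2.94 CPM beside shNC (log2 fold change 3.42 with SE 0.319, edgeR adjusted p = 4.74e-05). Cd200, the ligand of an inhibitory myeloid receptor, had 57.2 and 47.5 CPM beside shFto-2, against 12.1 and 10.6 CPM beside shNC (log2 fold change 2.23 with SE 0.203, edgeR adjusted p = 4.05e-05). Every shFto-2 value of these genes lay above every shNC value. Pdcd1 was also above its shFto-1 level (43.2 and 38.5 CPM, log2 difference 0.98 with SE 0.137, edgeR adjusted p = 0.0222), while for Lag3 that difference did not pass (1.11, edgeR adjusted p = 0.0526). Smaller rises were seen for Cd160 (1.06), Tigit (1.504) and Btla (0.79). The 3 that fell were Nt5e, the ectoenzyme CD73 (-1.94), Cd96 (-1.10) and Cd101, which had a single count beside shFto-2. Cd101 and Nt5e had mean levels under 10 CPM. Ctla4 had 69.6 and 71.9 CPM beside shFto-2, against 56.8 and 55.2 CPM beside shNC, and did not pass (0.34, edgeR adjusted p = 0.0612), and neither did Havcr2, which encodes TIM-3.

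Costimulatory and activation receptors gave 6 higher (40%) and 2 lower (13.3%, the share over all genes) of 15, with a median of 0.217. With library totals 4 were higher and 3 lower, and the median was 0.0403. It was 0.0956 without shFto-2 replicate 1, 0.373 without shFto-2 replicate 2 and 0.459 without shNC replicate 2. Tnfrsf9, the receptor 4-1BB, had 488 and 528 CPM beside shFto-2, against 154 and 182 CPM beside shNC (log2 fold change 1.59 with SE 0.132, edgeR adjusted p = 2.95e-05). Slamf1, an adhesion and signalling receptor, had 316 and 326 CPM beside shFto-2, against 152 and 168 CPM beside shNC (1.00), and Cd40lg, the ligand of CD40, had 126 and 136 CPM beside shFto-2, against 80.4 and 77.6 CPM beside shNC (0.73). Tfrc, the transferrin receptor, which brings iron into growing cells, was higher (0.84), but tumour cells also expressed it (286 and 208 CPM in shFto and shNC). Cd69, an early activation receptor, was lower, with 766 and 679 CPM beside shFto-2, against 1012 and 972 CPM beside shNC (log2 fold change -0.46 with SE 0.102, edgeR adjusted p = 0.00608). Cd27 was lower too (-0.51).

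Genes of naive and memory T cells were nearly all lower beside shFto-2. Of 22 tested, 19 were lower (86.4%, against 13.3% of all genes) and 1 higher (4.55%, against 20.4%). The median log2 fold change was -1.34. Il7r (chromosome 15, 9506159 to 9529941), the receptor chain that carries survival signals from interleukin 7, had 104 and 60.9 CPM beside shFto-2, against 409 and 434 CPM beside shNC (log2 fold change -2.34 with SE 0.197, edgeR adjusted p = 3e-05). Tcf7, the transcription factor TCF1 of naive and stem-like T cells, had 308 and 213 CPM beside shFto-2, against 908 and 803 CPM beside shNC (log2 fold change -1.71 with SE 0.157, edgeR adjusted p = 4.37e-05). Its relative Lef1 had 171 and 125 CPM beside shFto-2, against 453 and 459 CPM beside shNC (log2 fold change -1.62 with SE 0.143, edgeR adjusted p = 3.54e-05). Each shFto-2 value of these genes lay below each shNC value.

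Klf3, a repressor of the Krüppel-like family, had 29.7 and 24.2 CPM beside shFto-2, against 117 and 112 CPM beside shNC (log2 fold change -2.07 with SE 0.144, edgeR adjusted p = 1.97e-05), and tumour levels were 33.9 and 34.9 CPM. S1pr1, which guides T cells out of lymph nodes, had 73.0 and 45.1 CPM beside shFto-2, against 198 and 226 CPM beside shNC (-1.84). Txnip, an inhibitor of glucose uptake, had 91.1 and 66.0 CPM beside shFto-2, against 295 and 281 CPM beside shNC (-1.86). These groups did not overlap. Foxo1 (-0.37), Bach2 (-0.41), Satb1 (-0.25) and Ccr7 (-0.45) fell by much less. Id3 was the 1 gene of the list that was higher (15.6 and 17.2 CPM beside shFto-2, against 8.57 and 9.09 CPM beside shNC), tumour cells expressed it at 135 and 25.8 CPM in shFto and shNC, and its call was lost without shFto-2 replicate 2. Against shFto-1, 6 of the 22 were lower: Il7r, Tcf7, Lef1, Klf3, Nsg2 and Txnip.

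Transcription factors of activated and effector T cells split, with 9 of 23 higher (39.1%), 8 lower (34.8%) and a median of 0.298. Irf8, an interferon regulatory factor of effector T cells, had 616 and 700.4 CPM beside shFto-2, against 303 and 295 CPM beside shNC (log2 fold change 1.14 with SE 0.0960, edgeR adjusted p = 3.05e-05). Irf4, which scales with receptor signal strength, had 1285 and 1238 CPM beside shFto-2, against 782 and 780.3 CPM beside shNC (0.69). Myc, the growth regulator, had 1184 and 1248 CPM beside shFto-2, against 844 and 716 CPM beside shNC (0.64). Hif1a, a subunit of the hypoxia-inducible factor, had 658 and 664 CPM beside shFto-2, against 319.6 and 328 CPM beside shNC (log2 fold change 1.03 with SE 0.0901, edgeR adjusted p = 3.5e-05), and tumour levels were 255 and 198 CPM. All 4 were higher in both shFto-2 libraries. Among the factors that fell were Ikzf2, which encodes Helios (41.5 and 31.6 CPM beside shFto-2, against 123 and 137 CPM beside shNC, -1.82), Rora (-1.28), Bcl6 (-1.08), Runx3 (-0.52) and Tbx21, which encodes T-bet (78.0 and 81.9 CPM beside shFto-2, against 118 and 100 CPM beside shNC, -0.44). Tbx21 was also below its shFto-1 level (log2 difference -0.72 with SE 0.113, edgeR adjusted p = 0.0222). Without shNC replicate 2, 5 of the list were lower. With library totals 7 were higher and 9 lower, with a median of 0.124, and the median was 0.101 without shFto-2 replicate 1.

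Immediate early genes, which respond to receptor signals within minutes to hours, gave 7 higher (30.4%) and 6 lower (26.1%) of 23, with a median near 0, at 0.0361. Egr3 had 109 and 79.4 CPM beside shFto-2, against 346 and 334 CPM beside shNC (log2 fold change -1.84 with SE 0.163, edgeR adjusted p = 3.6e-05). Egr1 had 237 and 163 CPM beside shFto-2, against 619 and 509 CPM beside shNC (log2 fold change -1.49 with SE 0.184, edgeR adjusted p = 0.000198). Their relative Egr2 had 137 and 137 CPM beside shFto-2, against 142 and 127 CPM beside shNC, and did not pass (0.04, edgeR adjusted p = 0.841). Spry1, a feedback inhibitor of the RAS to ERK pathway, had 299.6 and 310.2 CPM beside shFto-2, against 95.4 and 90.2 CPM beside shNC (log2 fold change 1.72 with SE 0.0996, edgeR adjusted p = 1.53e-05). Fosl1, an AP-1 subunit, had 72.6 and 78.1 CPM beside shFto-2, against 29.6 and 25.2 CPM beside shNC (1.48). Fos (-0.85), Jun (-0.59) and Junb (-0.44) fell, and Nr4a1, a reporter of receptor signalling, had 1046 and 1063 CPM beside shFto-2, against 1345 and 1171 CPM beside shNC and did not pass (-0.25, edgeR adjusted p = 0.0605). With library totals 4 of the list were higher and 9 lower, and the median was -0.138. When 1 library was left out, the median stayed between -0.0133 and 0.0647. Leaving out shFto-2 replicate 1 left 4 higher, and leaving out shNC replicate 1 left 3 lower.

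Proximal T cell receptor signalling genes were mostly lower, 22 of 35 (62.9%, against 13.3% of all genes). The 6 higher (17.1%) were below the 20.4% of all genes, and the median was -0.493. This list shares Cd3e, Cd3d, Cd3g, Cd247, Cd8a, Cd8b1 and Lck with the identity markers above, so their calls are counted in both. Dgka, a kinase that removes the second messenger diacylglycerol, had 207 and 136 CPM beside shFto-2, against 774 and 728 CPM beside shNC (log2 fold change -2.13 with SE 0.165, edgeR adjusted p = 2.46e-05). Grap2, the adaptor GADS, which links LAT to SLP-76, had 98.4 and 80.8 CPM beside shFto-2, against 411 and 360.3 CPM beside shNC (log2 fold change -2.10 with SE 0.124, edgeR adjusted p = 1.53e-05). Rasgrp1, an activator of RAS, had 91.2 and 70.8 CPM beside shFto-2, against 197 and 189.6 CPM beside shNC (-1.25). No shFto-2 library reached an shNC value in these genes. The kinases Fyn and Zap70 were higher, Fyn with 753 and 729 CPM beside shFto-2, against 412 and 391 CPM beside shNC (log2 fold change 0.88 with SE 0.0877, edgeR adjusted p = 6.02e-05) and Zap70 with 317 and 306 CPM beside shFto-2, against 235 and 203 CPM beside shNC (0.52). Lat (0.05, edgeR adjusted p = 0.772) and Ptpn22 (-0.07, edgeR adjusted p = 0.58) did not pass. Against shFto-1, 7 of the 35 were lower, among them Cd247, Cd8b1, Dgka, Sla2, Grap2 and Rasgrp1.

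Receptors and signalling parts of the cytokine pathways gave 17 lower of 29 (58.6%, against 13.3% of all genes). The 6 higher (20.7%) were near the 20.4% of all genes, and the median was -0.596. Il7r, given above with the naive and memory genes, is also counted in this list. Ifngr1, the ligand-binding chain of the interferon gamma receptor, had 302 and 180.5 CPM beside shFto-2, against 706 and 716 CPM beside shNC (log2 fold change -1.56 with SE 0.192, edgeR adjusted p = 0.000194), and Tgfbr2, a receptor for TGF-beta, had 95.9 and 66.8 CPM beside shFto-2, against 275 and 251 CPM beside shNC (-1.68). Jak1, the kinase that many of these receptors share, had 445 and 367 CPM beside shFto-2, against 909 and 870.1 CPM beside shNC (-1.13). In each of these genes the groups were separate, and Ifngr1 and Tgfbr2 were also lower than beside shFto-1 (-0.95 and -0.90, edgeR adjusted p = 0.0421 and 0.0264). Il2ra, the high-affinity chain of the interleukin 2 receptor, went the other way, with 747 and 815 CPM beside shFto-2, against 361 and 343 CPM beside shNC (log2 fold change 1.15 with SE 0.0910, edgeR adjusted p = 2.54e-05). It was also above shFto-1, at 561 and 563 CPM (0.47, edgeR adjusted p = 0.0374). Cish, an inhibitor that interleukin 2 induces, was higher (0.80), and Socs1 was lower (-1.01).

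Homing receptors and integrins gave 4 higher (21.1%, near the 20.4% of all genes) and 8 lower (42.1%) of 19, with a median of -0.895. That median rests on single libraries, at -0.0425 without shNC replicate 2, -0.407 without shFto-2 replicate 2 and -1.48 without shFto-2 replicate 1. Itgb7, which pairs with Itga4 or Itgae to form gut-homing integrins, had 20.7 and 16.9 CPM beside shFto-2, against 78.9 and 67.8 CPM beside shNC (log2 fold change -1.94 with SE 0.159, edgeR adjusted p = 2.82e-05). Its partners also fell, Itgae with 20.5 and 11.3 CPM beside shFto-2, against 62.5 and 62.8 CPM beside shNC (-1.95) and Itga4 with 78.1 and 47.2 CPM beside shFto-2, against 216 and 209 CPM beside shNC (-1.75), and Itga4 was at 69.6 and 55.1 CPM in tumour cells. The chains of LFA-1, Itgal (0.47) and Itgb2 (0.82), were higher, as was the chemokine receptor Cxcr6 (0.69). Itgb1 was the fourth (0.60), with tumour levels of 590.3 and 461 CPM.

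Of 19 NF-kB subunits and targets, 9 were lower (47.4%, against 13.3% of all genes) and 6 higher (31.6%, against 20.4%). The median was -0.254. Nfkb1, the p50 precursor, had 1659.8 and 1723 CPM beside shFto-2, against 870.0 and 847 CPM beside shNC (log2 fold change 0.98 with SE 0.0831, edgeR adjusted p = 3.15e-05). Inhibitor genes of the list moved in both directions. Nfkbib was higher, with 258 and 279 CPM beside shFto-2, against 139 and 141 CPM beside shNC (log2 fold change 0.94 with SE 0.0951, edgeR adjusted p = 6.77e-05). Nfkbie was lower, with 78.5 and 76.4 CPM beside shFto-2, against 170.0 and 145 CPM beside shNC (log2 fold change -1.02 with SE 0.112, edgeR adjusted p = 0.000103). Icam1 had 149.7 and 146 CPM beside shFto-2, against 261 and 252 CPM beside shNC (-0.79). The survival genes Bcl2l1 (0.67) and Bcl2a1d (1.32) were higher, but Bcl2a1 copies are nearly identical in sequence and reads could be split between them. Without shNC replicate 1, 5 of the list were lower. The NF-kB median was -0.427 with library totals, -0.429 without shFto-2 replicate 1 and -0.156 without shFto-2 replicate 2. Among 15 BCL2 family and death receptor genes, 3 were higher (20%, against 20.4% of all genes) and 4 lower (26.7%, against 13.3%), with a median of -0.291. The death receptor gene Fas had 27.0 and 21.5 CPM beside shFto-2, against 52.1 and 50.3 CPM beside shNC (-1.07). Single libraries changed these small counts: 1 gene was higher without shFto-2 replicate 1, and 2 were lower without shFto-2 replicate 2 and also without shNC replicate 2. With library totals 1 was higher and 6 lower. Their median was -0.466 with library totals, -0.111 without shFto-2 replicate 2 and -0.0109 without shNC replicate 2.

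**Figure D4:**
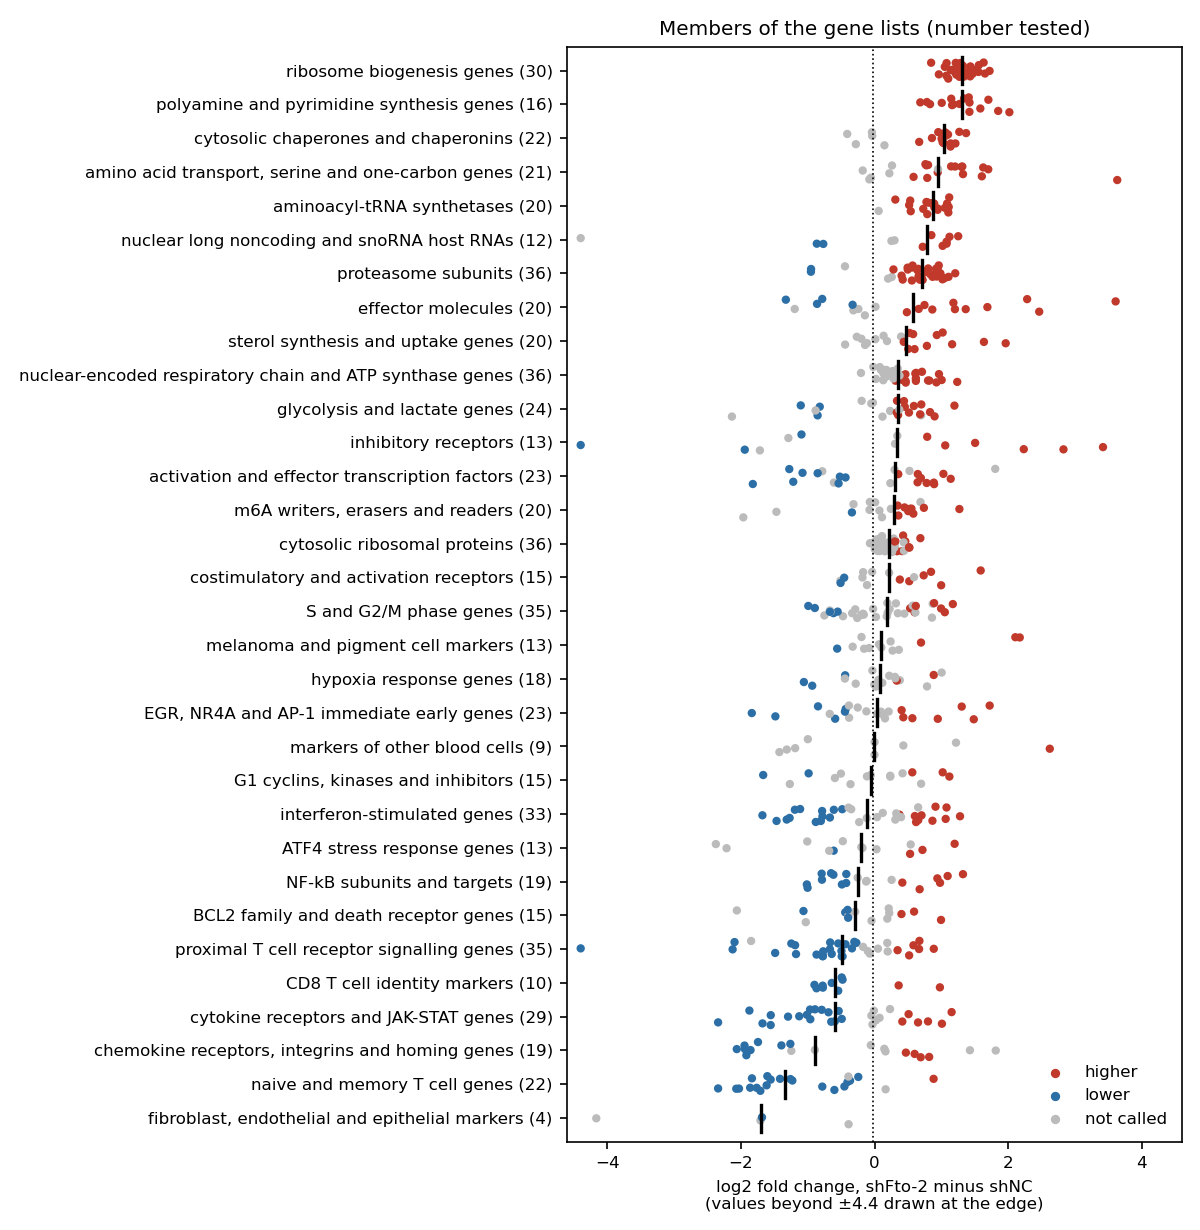
Each point is a tested member of a gene list, with its log2 fold change, shFto-2 minus shNC, on the x axis. Lists run down the page by their median, drawn as a black bar, the dotted line is the median of all genes, and colours give the call. Ribosome biogenesis genes lie at the top with a median of 1.30 and naive and memory genes near the bottom with -1.34.

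In a pair of growth and biosynthesis lists, every tested gene was higher beside shFto-2. The lists were chosen with earlier results of these data known, so the full counts describe them and test nothing. All 30 tested ribosome biogenesis genes were higher, with log2 fold changes between 0.85 and 1.72 and a median of 1.30. All 16 tested genes of polyamine, purine and pyrimidine synthesis were higher as well, between 0.68 and 2.02, also with a median of 1.30. Both counts stayed at 30 and 16 with library totals. Ncl (chromosome 1, 86344719 to 86359455), the nucleolar protein nucleolin, had 12468 and 13163 CPM beside shFto-2, against 4730.5 and 4852 CPM beside shNC (log2 fold change 1.42 with SE 0.0669, edgeR adjusted p = 8.55e-06). Npm1, its partner nucleophosmin, had 3902 and 4232 CPM beside shFto-2, against 1705 and 1638 CPM beside shNC (log2 fold change 1.28 with SE 0.0830, edgeR adjusted p = 1.74e-05). Mybbp1a, a nucleolar protein of ribosomal RNA transcription and processing, had 1183 and 1335 CPM beside shFto-2, against 435 and 421 CPM beside shNC (1.56). Utp20, which works on the RNA of the small subunit, had 467 and 479 CPM beside shFto-2, against 146 and 158 CPM beside shNC (1.63). No shFto-2 value overlapped with shNC in these genes, and shFto-1 lay between, with 9549.6 and 9918 CPM for Ncl. The difference from shFto-1 passed for 4 of the 30 genes, Ncl, Mybbp1a, Utp20 and Heatr1.

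Srm, which makes spermidine, had 238 and 255 CPM beside shFto-2, against 78.6 and 61.1 CPM beside shNC (log2 fold change 1.85 with SE 0.127, edgeR adjusted p = 1.95e-05). Odc1, which makes its precursor putrescine, had 1157 and 1187 CPM beside shFto-2, against 678 and 642 CPM beside shNC (log2 fold change 0.83 with SE 0.0850, edgeR adjusted p = 7.29e-05). Cad, which starts pyrimidine synthesis, had 405 and 432 CPM beside shFto-2, against 139 and 120.0 CPM beside shNC (log2 fold change 1.70 with SE 0.106, edgeR adjusted p = 1.71e-05). The groups were apart in all 3 genes. Cad, Ppat, Pfas and Atic, the last 3 of purine synthesis, were also above their shFto-1 levels. These are tumour transcripts too, with tumour levels of 124 and 131 CPM for Srm, 246 and 296 CPM for Cad and 3237 and 3351 CPM for Ncl in shFto and shNC.

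Amino acid transport, serine and one-carbon genes gave 15 higher of 21 (71.4%, against 20.4% of all genes), the other 6 not passing. The median was 0.944. Shmt2, the mitochondrial enzyme that takes a carbon unit from serine, had 394 and 407 CPM beside shFto-2, against 134 and 130.2 CPM beside shNC (log2 fold change 1.604 with SE 0.0947, edgeR adjusted p = 1.53e-05). Shmt1, its cytosolic form, had 214 and 235 CPM beside shFto-2, against 80.7 and 60.5 CPM beside shNC (1.70), and Mthfd1, which passes the carbon unit on, had 285 and 337 CPM beside shFto-2, against 106 and 96.3 CPM beside shNC (1.62). Slc7a5, the main transporter of large neutral amino acids in T cells, had 272 and 259.5 CPM beside shFto-2, against 101 and 113 CPM beside shNC (log2 fold change 1.30 with SE 0.101, edgeR adjusted p = 2.46e-05). All shFto-2 values lay above the shNC values. Slc7a11, the cystine transporter, had 21.2 and 27.9 CPM beside shFto-2, against 0 and 2.94 CPM beside shNC (3.63) and was at 22.7 and 5.14 CPM in shFto and shNC tumour cells. Asns, Psph, Slc38a1, Slc38a2, Slc1a4 and Pycr1 did not pass. With library totals, with DESeq2 and under the stricter filter 1 gene of the list was lower.

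Of 20 aminoacyl-tRNA synthetases, which load amino acids onto transfer RNA, 19 were higher (median 0.869), among them Kars with 391 and 415 CPM beside shFto-2, against 197 and 192 CPM beside shNC (1.05). A list of cytosolic chaperones and chaperonins, which also held the mitochondrial Hspd1 and Hspe1, gave 17 higher of 22 (77.3%, median 1.04). Hspd1, the mitochondrial chaperonin HSP60, had 796 and 943 CPM beside shFto-2, against 308 and 363 CPM beside shNC (1.37), and Hsp90ab1 had 9057 and 9180.0 CPM beside shFto-2, against 4518 and 4236 CPM beside shNC (1.06). The stress-inducible Hspa1a, Hspa1b, Dnajb1 and Bag3 did not pass. Of 36 proteasome subunits, 31 were higher (86.1%, against 20.4% of all genes) and 2 lower (5.56%, against 13.3%), with a median of 0.712. Psmd1, a regulatory subunit, had 490.5 and 513 CPM beside shFto-2, against 212 and 222 CPM beside shNC (log2 fold change 1.21 with SE 0.0901, edgeR adjusted p = 2.31e-05). The 2 that fell were Psmb8 (170.2 and 148 CPM beside shFto-2, against 353 and 268 CPM beside shNC, -0.95) and Psmb9 (28.7 and 29.8 CPM beside shFto-2, against 67.9 and 48.0 CPM beside shNC, -0.95). Both are among the interferon-induced subunits, not all of which were lower: Psmb10, Psme1 and Psme2 were also in the list.

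Cytosolic ribosomal protein genes moved less, with 9 of 36 higher (25%, against 20.4% of all genes), the other 27 not passing and a median of 0.22. The median was 0.0473 with library totals and 0.104 without shNC replicate 2. The count was unsteady, at 2 with library totals, 4 with RLE size factors or the stricter filter, 4 without shFto-2 replicate 1, 2 without shFto-2 replicate 2, 14 without shFto-1 replicate 1, 3 without shNC replicate 2 and 16 in the equal-depth fit. Rps2 had 1052 and 1041 CPM beside shFto-2, against 684 and 620.5 CPM beside shNC (log2 fold change 0.68 with SE 0.127, edgeR adjusted p = 0.0021). Many ribosomal protein genes have processed copies in the genome that can share reads. Of 12 tested nuclear noncoding RNAs, 7 were higher (58.3%, against 20.4% of all genes) and 2 lower (16.7%, against 13.3%). Snhg8, Kcnq1ot1 and Meg3 did not pass. The 7 were Gas5, Snhg1, Snhg3, Snhg4, Snhg5, Snhg6 and Snhg12, which host small nucleolar RNAs, as Snhg8 does. Snhg1 had 153 and 155 CPM beside shFto-2, against 63.6 and 79.8 CPM beside shNC (1.08). Malat1, an abundant nuclear RNA, had 10504 and 8630.5 CPM beside shFto-2, against 16087 and 16523 CPM beside shNC (log2 fold change -0.77 with SE 0.100, edgeR adjusted p = 0.000265), and Neat1, the scaffold of paraspeckles, had 258 and 240.3 CPM beside shFto-2, against 412 and 494 CPM beside shNC (-0.87). Without shNC replicate 2, 1 of the 12 was lower.

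Glycolysis and lactate genes gave 12 higher of 24 (50%, against 20.4% of all genes). The 3 lower (12.5%) were near the 13.3% of all genes, and the median was 0.343. Hk2, the inducible hexokinase, had 627 and 758 CPM beside shFto-2, against 281 and 322 CPM beside shNC (log2 fold change 1.19 with SE 0.119, edgeR adjusted p = 6.22e-05). Pkm, pyruvate kinase, had 2416 and 2857 CPM beside shFto-2, against 1686 and 1565 CPM beside shNC (0.70), and Slc16a1, a lactate transporter, had 203 and 219 CPM beside shFto-2, against 102 and 122 CPM beside shNC (0.90). Pdk1, which holds pyruvate back from mitochondria, was lower, with 119 and 115 CPM beside shFto-2, against 249.99 and 254 CPM beside shNC (log2 fold change -1.11 with SE 0.0933, edgeR adjusted p = 3.05e-05). The groups did not overlap in these 4 genes. The count of higher genes was 7 with library totals and 7 without shFto-2 replicate 2. The count of lower genes was 5 under the stricter filter and 1 without shNC replicate 2. The median was 0.169 with library totals and 0.227 without shFto-2 replicate 2. Tumour levels of Pkm were 2299 and 3303 CPM and of Hk2 205 and 216 CPM in shFto and shNC.

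Of 36 nuclear-encoded respiratory chain and ATP synthase genes, 16 were higher and 20 did not pass (median 0.354), and 9 were higher without shFto-2 replicate 2. The median was 0.178 with library totals and 0.228 without shNC replicate 1. Atp5b, the catalytic subunit of ATP synthase, had 831 and 870.0 CPM beside shFto-2, against 440.0 and 456 CPM beside shNC (0.92), and Ndufaf4, an assembly factor of complex I, had 132 and 144 CPM beside shFto-2, against 51.1 and 64.0 CPM beside shNC (1.24). Of 18 hypoxia response genes, 2 were higher (11.1%) and 3 lower (16.7%, against 13.3% of all genes). Egln3 was higher (0.88), and Bnip3l (-0.93), Mxi1 (-1.06) and Kdm3a (-0.44) were lower. With library totals the hypoxia median changed sign, at -0.0882 against 0.086, and it lay between -0.0137 (without shFto-2 replicate 2) and 0.254 (without shNC replicate 2) when 1 library was left out. The count of higher hypoxia genes was 1 with library totals, DESeq2, RLE size factors, no filter, the stricter filter, the 4 libraries alone or the replicate block. It also fell when any 1 shFto-2 or shFto-1 library was left out. Sterol synthesis and uptake genes gave 11 higher of 20, with 9 not passing (median 0.468), against 7 with library totals (median 0.294) and 6 without shFto-2 replicate 2. Idi1, an isomerase of the mevalonate pathway, had 81.4 and 68.4 CPM beside shFto-2, against 24.999 and 23.6 CPM beside shNC (log2 fold change 1.64 with SE 0.154, edgeR adjusted p = 4.86e-05). Of 13 ATF4 stress response genes, 3 were higher (23.1%) and 1 lower (7.69%), with a median of -0.20 that was -0.372 with library totals and -0.308 without shFto-2 replicate 1. Cebpb had 73.1 and 79.4 CPM beside shFto-2, against 33.9 and 32.7 CPM beside shNC (1.197), and Atf4 itself 512 and 424 CPM beside shFto-2, against 299 and 272 CPM beside shNC (0.72). The lower gene, Ddit3, which encodes CHOP, lost its call without shFto-2 replicate 1 or either shNC replicate. With library totals 2 were higher and 3 lower.

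Cell cycle genes showed no common direction. Their shares of calls lay near those of all genes. Of 15 G1 cyclins, kinases and inhibitors, 3 were higher (20%, against 20.4% of all genes) and 2 lower (13.3%, as over all genes). The 3 were Ccnd2 (0.56), Cdk4 (1.12) and Cdk6 (1.02). Cdkn1b, the inhibitor p27 that holds resting T cells in G1, was lower, with 69.6 and 52.3 CPM beside shFto-2, against 209.6 and 182 CPM beside shNC (log2 fold change -1.67 with SE 0.148, edgeR adjusted p = 3.6e-05), and so was Rb1 (-0.99). Cdkn1b was also below its shFto-1 level of 120.1 and 107 CPM (-0.90, edgeR adjusted p = 0.0257). With library totals 4 of the 15 were lower, and the median was -0.229 in place of -0.0596. It lay between -0.197 (without shFto-2 replicate 2) and 0.0978 (without shNC replicate 2) when 1 library was left out. Of 35 S and G2/M phase genes, 7 were higher (20%) and 5 lower (14.3%), also near the background. Their median of 0.181 was 0.00558 with library totals, 0.0471 without shFto-2 replicate 2 and 0.0708 without shNC replicate 1. Among the higher ones were the replication licensing genes Mcm2 (160.3 and 181 CPM beside shFto-2, against 79.3 and 73.1 CPM beside shNC, 1.17), Mcm3 (0.99) and Mcm5 (1.05). Among the lower were Mki67 (103 and 104 CPM beside shFto-2, against 140.0 and 161 CPM beside shNC, -0.55) and Top2a (-0.62). Genes of both directions were higher in tumour cells than in the T cell libraries. In shFto and shNC tumour cells, Mki67 stood at 1142 and 945 CPM and Top2a at 862 and 679 CPM. Mcm2 stood there at 735 and 823 CPM, Mcm3 at 541 and 596 CPM and Mcm5 at 241 and 299 CPM.

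Interferon-stimulated genes were called in both directions. Of 33 tested, 10 were higher (30.3%, against 20.4% of all genes), 13 lower (39.4%, against 13.3%) and 10 did not pass, with a median of -0.119. The higher genes were Mx1, Rsad2, Usp18, Dhx58, Ifit1, Isg20, Bst2, Oasl1, Ifit2 and Ifit3. The lower genes were Gbp4, Samhd1, Gbp7, Irf1, Igtp, Gbp2, Gbp5, Irgm1, Gbp3, Parp14, Irf9, Zbp1 and Stat2. Among members under 1 CPM in both tumour groups, 0 were higher and 3 lower, with a median of -0.611. All 10 higher genes thus had at least 1 CPM in a tumour group, and so did the other lower genes. Whether tumour RNA takes part in these changes was not tested. As background, the Ifit genes, Rsad2 and Mx1 are strong targets of type I interferon, and Irf1 and the guanylate-binding protein genes of interferon gamma, with much overlap. The list was not divided by interferon type for any test. Stat2 (-0.49) and Irf9 (-0.67), which work together in the type I response, were lower, and its targets Isg15 (0.65), Oas1a (0.40), Oas3 (0.32), Irf7 (-0.23) and Ddx58 (-0.35) did not pass. With library totals 7 were higher and 15 lower, with a median of -0.295. The median was -0.431 without shFto-2 replicate 1, -0.0699 without shFto-2 replicate 2, -0.241 without shNC replicate 1 and 0.0409 without shNC replicate 2.

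Promoter bases are shown for genes of both directions, because interferon factors bind defined letters there. The interferon-stimulated response element (ISRE) was searched as GAAA, any 2 bases and GAAA, and the gamma-activated site (GAS) as TTC, any 3 bases and GAA, each on both strands, in the 250 bases before the gene start. Sequences are from RefSeq, GRCm38.p6, in the direction of the gene, and capitals mark the ISRE, or in Irf1 the GAS.
Rsad2 (chr12:26456453-26456702, minus strand): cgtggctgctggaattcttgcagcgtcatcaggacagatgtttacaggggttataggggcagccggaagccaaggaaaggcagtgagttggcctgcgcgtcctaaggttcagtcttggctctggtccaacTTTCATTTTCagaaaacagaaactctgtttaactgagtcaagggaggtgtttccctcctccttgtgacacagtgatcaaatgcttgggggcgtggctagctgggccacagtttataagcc
Ifit1 (chr19:34640639-34640888, plus strand): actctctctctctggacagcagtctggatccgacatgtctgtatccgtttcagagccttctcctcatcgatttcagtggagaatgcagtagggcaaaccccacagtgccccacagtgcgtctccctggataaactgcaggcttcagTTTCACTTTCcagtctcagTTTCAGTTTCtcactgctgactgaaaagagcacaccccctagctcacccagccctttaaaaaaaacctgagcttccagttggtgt
Ifit3 (chr19:34583279-34583528, plus strand): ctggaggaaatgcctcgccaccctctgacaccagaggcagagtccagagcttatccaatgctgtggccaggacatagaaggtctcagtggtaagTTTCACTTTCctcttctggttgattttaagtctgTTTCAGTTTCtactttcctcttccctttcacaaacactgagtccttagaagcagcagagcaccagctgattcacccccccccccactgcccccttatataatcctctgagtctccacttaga
Gbp2 (chr3:142620413-142620662, plus strand): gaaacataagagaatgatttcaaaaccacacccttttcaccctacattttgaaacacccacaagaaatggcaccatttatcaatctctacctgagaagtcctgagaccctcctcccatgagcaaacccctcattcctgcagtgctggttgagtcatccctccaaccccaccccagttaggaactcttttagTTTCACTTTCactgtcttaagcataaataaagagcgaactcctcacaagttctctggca
Gbp7 (chr3:142530086-142530335, plus strand): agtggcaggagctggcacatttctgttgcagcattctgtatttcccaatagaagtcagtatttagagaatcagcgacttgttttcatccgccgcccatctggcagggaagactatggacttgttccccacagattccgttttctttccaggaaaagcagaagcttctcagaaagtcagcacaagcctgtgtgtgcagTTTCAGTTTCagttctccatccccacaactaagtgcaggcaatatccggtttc
Igtp (chr11:58199306-58199555, plus strand): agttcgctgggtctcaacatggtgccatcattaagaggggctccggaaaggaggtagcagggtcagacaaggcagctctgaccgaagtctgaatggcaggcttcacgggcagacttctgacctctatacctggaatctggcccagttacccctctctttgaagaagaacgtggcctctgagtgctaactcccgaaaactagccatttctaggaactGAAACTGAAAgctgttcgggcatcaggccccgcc
Irf1 (chr11:53769764-53770013, plus strand): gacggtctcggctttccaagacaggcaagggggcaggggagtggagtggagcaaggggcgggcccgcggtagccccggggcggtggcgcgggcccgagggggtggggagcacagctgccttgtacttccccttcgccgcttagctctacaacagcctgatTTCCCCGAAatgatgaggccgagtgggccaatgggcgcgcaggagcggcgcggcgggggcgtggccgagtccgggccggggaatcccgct
Rsad2, Ifit1 and Ifit3 were higher beside shFto-2, and Gbp2, Gbp7, Igtp and Irf1 were lower. The ISRE letters were present in 14 of the 25 interferon-stimulated genes that had a promoter in the table (56%), against 3.29% of 9700 tested genes and 3.46% of all 27025 promoters. They stood in 4 of 7 higher genes (57.1%) and 7 of 10 lower genes (70%). The GAS letters stood in 9 of the 25 (36%), in 3 of 7 higher and 5 of 10 lower genes, against 7.40% of tested genes and 8.13% of all promoters. Both motifs occurred in 5 of the genes, and their letters overlapped in 1, Bst2. A match is a description of letters and not a binding site.

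Rsad2, which encodes the antiviral enzyme viperin, had 156 and 163 CPM beside shFto-2, against 65.7 and 83.3 CPM beside shNC (log2 fold change 1.08 with SE 0.145, edgeR adjusted p = 0.000326). Beside shFto-1 it had 71.1 and 56.7 CPM, and that difference also passed (log2 difference 1.30 with SE 0.142, edgeR adjusted p = 0.0186). Mx1, an antiviral GTPase, had 45.1 and 30.0 CPM beside shFto-2, against 13.9 and 16.6 CPM beside shNC (log2 fold change 1.28 with SE 0.237, edgeR adjusted p = 0.00214). Its shFto-1 level was 14.02 and 11.3 CPM (log2 difference 1.55 with SE 0.229, edgeR adjusted p = 0.0222). Both genes were higher beside shFto-2 than in any of the other 4 libraries, and in tumour cells Rsad2 stood at 36.3 and 44.3 CPM and Mx1 at 4.22 and 5.90 CPM in shFto and shNC. Ifit1, which binds foreign RNA, had 211 and 182 CPM beside shFto-2, against 96.8 and 117 CPM beside shNC (0.86), and Ifit3 had 296 and 293 CPM beside shFto-2, against 215 and 239 CPM beside shNC (0.37). Both were above shFto-1, at 128 and 116 CPM and 192 and 192 CPM (0.69 and 0.62, edgeR adjusted p = 0.0329 and 0.0222).

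Gbp4 (chromosome 5, 105115767 to 105139586), a guanylate-binding protein of cell-autonomous defence, had 724 and 546 CPM beside shFto-2, against 2211 and 1862 CPM beside shNC (log2 fold change -1.68 with SE 0.138, edgeR adjusted p = 2.82e-05). Gbp2 had 1054 and 923 CPM beside shFto-2, against 2037 and 2246 CPM beside shNC (log2 fold change -1.12 with SE 0.0950, edgeR adjusted p = 3.15e-05), and Gbp7 had 408 and 318 CPM beside shFto-2, against 916 and 894 CPM beside shNC (-1.32). Igtp, an immunity-related GTPase, had 340.3 and 276 CPM beside shFto-2, against 725 and 687 CPM beside shNC (-1.19), and Irf1, a transcription factor that interferon gamma induces, had 494 and 397 CPM beside shFto-2, against 1123 and 1034 CPM beside shNC (log2 fold change -1.27 with SE 0.133, edgeR adjusted p = 7.97e-05). Each shFto-2 value lay below each shNC value. All 5 were also below shFto-1, where Gbp4 had 1024 and 1084 CPM and Irf1 891 and 724 CPM. Of the 33 genes, 5 were above shFto-1 and 6 below. Guanylate-binding protein genes share sequence, so reads could be split between members. The level of Ifng was higher and that of Ifngr1 lower, as given above.

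**Figure D5:**
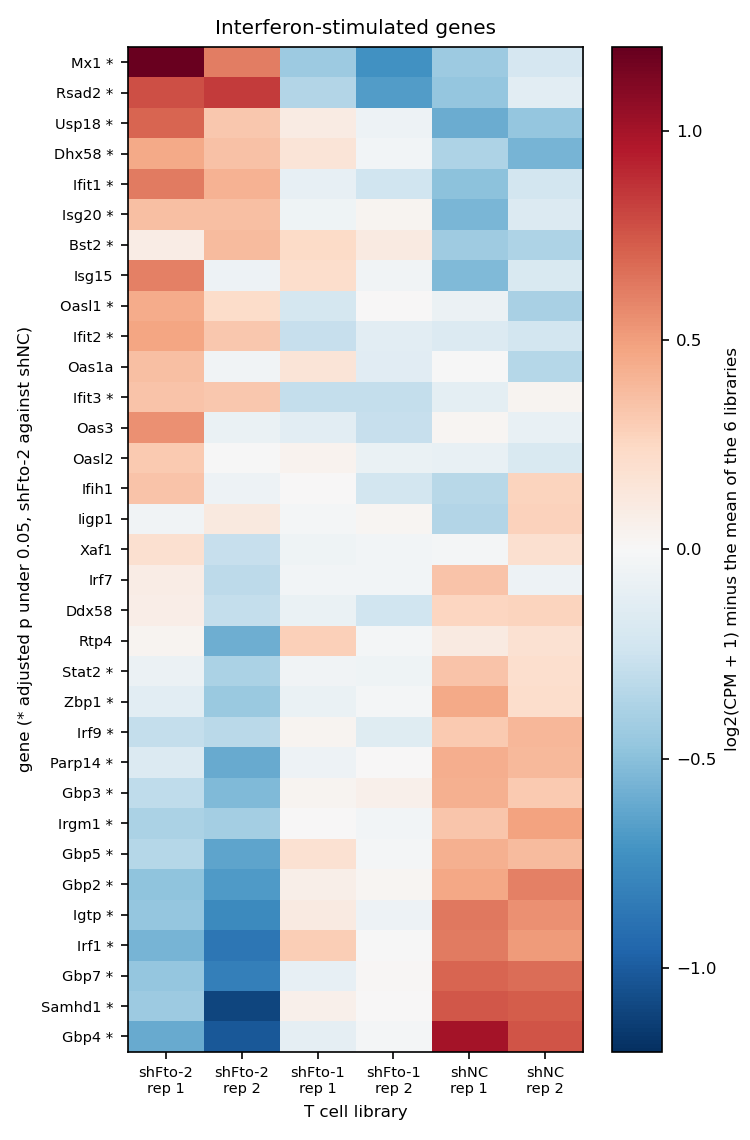
Rows are the 33 interferon-stimulated genes and columns the 6 T cell libraries, with shFto-2 at the left, shFto-1 in the middle and shNC at the right. Colour is log2(CPM + 1) minus the mean of the 6 libraries, and a star marks an adjusted p under 0.05 against shNC. Mx1 and Rsad2 at the top are high in both shFto-2 libraries, and Gbp4 at the bottom is low there.

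For E-box letters, CACGTG, which MYC and MAX bind, the share was 1 of 26 ribosome biogenesis promoters (3.85%) and 4 of 13 polyamine and nucleotide synthesis promoters (30.8%), against 9.65% of tested genes. The motif is its own reverse complement, so both strands give the same matches.

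Of 20 m6A writers, erasers and readers in the T cells, 9 were higher (45%) and 1 lower (5%), with a median of 0.293, or 0.118 with library totals. Mettl16, a methyltransferase that acts on U6 and a few other RNAs, had 166 and 178 CPM beside shFto-2, against 73.2 and 70.0 CPM beside shNC (log2 fold change 1.27 with SE 0.106, edgeR adjusted p = 2.95e-05). Hnrnpc, an RNA-binding protein, had 566 and 628 CPM beside shFto-2, against 336 and 379 CPM beside shNC (0.74), and the reader Ythdf2 had 230.0 and 238 CPM beside shFto-2, against 163 and 157 CPM beside shNC (0.55). Mettl3 and Alkbh5 did not pass, and the lower gene was 1110037F02Rik, an older symbol for the writer subunit VIRMA (-0.34). The count of higher genes was 4 with library totals, 5 without shFto-2 replicate 1 and 5 without shNC replicate 2, and 2 were lower with library totals. The lower gene lost its call without shFto-2 replicate 2, shFto-1 replicate 1 or shNC replicate 2.

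Over all genes, the 12 largest rises among genes at a mean of at least 10 CPM ranged from 2.79 to 4.57 on the log2 scale. C1s1, a complement protease gene, had 22.3 and 21.04 CPM beside shFto-2, against 0.714 and 0.979 CPM beside shNC (log2 fold change 4.57 with SE 0.326, edgeR adjusted p = 2.15e-05). Nos2 (chromosome 11, 78920787 to 78960226), the inducible nitric oxide synthase, had 25.9 and 30.6 CPM beside shFto-2, against 1.43 and 1.26 CPM beside shNC (log2 fold change 4.41 with SE 0.318, edgeR adjusted p = 2.15e-05), with none in tumour cells. Ccl2 (chromosome 11, 82035577 to 82037452), a chemokine that draws monocytes, had 75.4 and 88.3 CPM beside shFto-2, against 6.79 and 8.67 CPM beside shNC (log2 fold change 3.34 with SE 0.177, edgeR adjusted p = 1.29e-05), with tumour levels of 0.154 and 0.0700 CPM. In all 3 genes shNC values were a small part of the shFto-2 values. Nos2 and Ccl2 were also above shFto-1, at 8.51 and 10.9 CPM and 33.4 and 31.6 CPM (1.56 and 1.33, edgeR adjusted p = 0.0222 and 0.0186).

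Chst2, a sulfotransferase, had 174 and 169 CPM beside shFto-2, against 24.3 and 22.6 CPM beside shNC (log2 fold change 2.88 with SE 0.136, edgeR adjusted p = 8.55e-06) and no counts in tumour cells. Crabp2, which carries retinoic acid, had 43.6 and 49.7 CPM beside shFto-2, against 4.29 and 5.17 CPM beside shNC (3.25). Rrp8, a nucleolar methyltransferase, had 59.9 and 62.2 CPM beside shFto-2, against 10.7 and 7.83 CPM beside shNC (2.79). Mrps25 (2.99) and Ncs1 (3.20) completed the rises with Slc7a11, Lag3, Pdcd1 and Met. Met, the receptor of hepatocyte growth factor, had 76.9 and 87.4 CPM beside shFto-2, against 8.21 and 11.5 CPM beside shNC (2.98), and tumour cells had 879 and 267 CPM in shFto and shNC. Whether tumour RNA takes part in the rise of Met was not tested. Of the 12 rises, 5 were under 1 CPM in both tumour groups and 5 at 10 CPM or more in at least 1.

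Some genes had no counts at all in 1 group. For Crbn (chromosome 6, 106778244 to 106800099), the substrate receptor of a ubiquitin ligase, the shFto-2 libraries held 0 and 0 counts, the shFto-1 libraries 188 and 15 and the shNC libraries 154 and 360. Taking 3 counts as the most that counting error allows in an empty group, Crbn was at least 261-fold lower beside shFto-2 than beside shNC. This limit and those below leave out the spread between libraries, which was wider than counting error. Sla2, an adaptor that limits receptor signals, held 0 and 0 counts in the shFto-2 libraries, 92 and 66 in the shFto-1 libraries and 139 and 221 in the shNC libraries, and was at least 183-fold lower. By the same measure Pibf1, Dnah17 and Surf1 were at least 107-fold, 99.6-fold and 88.4-fold lower. Pibf1 and Dnah17 had no counts beside shFto-1 either. Dnah17 did not pass in DESeq2 (adjusted p = 0.0915). Matk, a kinase that restrains SRC family kinases, was counted 3 times in the shFto-2 pair and 219 times in the shNC pair. Its level in shNC over that in shFto-2 was 111 (exact 95% interval 37.6 to 544, counting error only).

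These zeros stood beside clear tumour levels, 41.4 and 32.8 CPM for Crbn, 15.5 and 13.7 CPM for Pibf1 and 25.9 and 27.8 CPM for Surf1 in shFto and shNC cells. The same shFto-2 libraries held 7.09% and 8.10% of the summed pigment gene level of shFto tumour cells, whose hairpin line the labels do not give, with single genes between 0% and 32.9%. Of 2222 genes at 100 CPM or more in tumour cells, 2 had no counts in both shFto-2 libraries and 1 had none in all 6. Over all genes, 6 had no counts in both shFto-2 libraries with at least 10 CPM in both shNC libraries, and 2 the other way round. Why such genes had no counts was not tested. Col12a1, a collagen gene, had no counts beside shNC and 103 and 103 beside shFto-2, at least 45.1-fold higher, with 14.7 and 3.12 CPM in shFto and shNC tumour cells. AI607873 and Alpl were at least 37.8-fold and 31.3-fold higher.

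Other large falls were in Hbp1, a repressor of cell cycle entry, with 1.01 and 5.58 CPM beside shFto-2, against 28.2 and 31.7 CPM beside shNC (log2 fold change -3.30 with SE 0.509, edgeR adjusted p = 0.000709). Clvs1 had 3.15 and 2.55 CPM beside shFto-2, against 20.7 and 31.6 CPM beside shNC (-3.20). Tumour levels in shFto and shNC were 31.8 and 31.4 CPM for Hbp1 and 41.4 and 114 CPM for Clvs1. Whether tumour RNA takes part in the fall of Clvs1 was not tested. Nlrc3, an inhibitor of innate and T cell signalling, had 4.95 and 2.07 CPM beside shFto-2, against 34.3 and 20.8 CPM beside shNC (-2.89). Cnr2, the peripheral cannabinoid receptor, had 4.05 and 2.55 CPM beside shFto-2, against 24.3 and 14.1 CPM beside shNC (-2.49), and N4bp2l1 had 12.03 and 7.49 CPM beside shFto-2, against 54.6 and 51.3 CPM beside shNC (-2.40). No overlap of the groups was part of the rule that named these genes, so it is no result here. The shFto-2 replicates of Hbp1 lay several-fold apart. Ttn passed with 0 and 6.22 CPM beside shFto-2, against 43.6 and 10.2 CPM beside shNC, but lost its call in DESeq2 (adjusted p = 0.276) and without shFto-2 replicate 1 or shNC replicate 1. Of the 12 largest falls, Crbn, Sla2, Dnah17, Pibf1 and Matk included, 5 were under 1 CPM in both tumour groups.

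The shFto-2 and shFto-1 lines were also set against each other. As given above, 245 of 12824 genes (1.91%) differed. Nos2, Mx1, Acsl6, Apol9b, Nudcd1, Ccl2, Rsad2 and Apol9a had the largest rises over shFto-1, and Hbp1, Dgat1, Hist1h3e, N4bp2l1, Tnfrsf25, Itgb7 and Hist1h1d were among the largest falls, counted over genes at a mean of at least 10 CPM. Apol9b, of the apolipoprotein L family, had 33.6 and 38.1 CPM beside shFto-2, 12.7 and 11.8 CPM beside shFto-1 and 6.43 and 9.79 CPM beside shNC (log2 difference 1.53 with SE 0.203, edgeR adjusted p = 0.0222). Apol9a and Apol9b are near-identical copies. Tnfrsf25, a death domain receptor of T cells, had 5.96 and 6.06 CPM beside shFto-2, 16.9 and 13.8 CPM beside shFto-1 and 20.4 and 21.4 CPM beside shNC (log2 difference -1.36 with SE 0.226, edgeR adjusted p = 0.0257). Between shFto-2 and shNC the difference in Hist1h3e did not pass (-0.27, edgeR adjusted p = 0.572), and its shFto-1 replicates were 81.6 and 40.7 CPM.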

How the data were processed

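Whole-number counts per gene were used as deposited by the authors, in 1 table of 6 T cell libraries and, for tumour levels, 1 table of tumour cell libraries. Per the labels' protocols, total RNA was extracted with Trizol from sorted T cells and made into libraries with the SMARTer stranded total RNA kit. Per the submitters' processing notes, Trim Galore 0.6.0, STAR 2.7.0f and the build mm10 were used in the series. The counting tool, its strand setting and its annotation are not given in the sources used here, so antisense and overlapping genes cannot be separated.

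The count of each gene was tested with edgeR 4.0.16 (R 4.3.3): filterByExpr, TMM, and the quasi-likelihood F test in 1 fit of all 6 libraries, with Benjamini-Hochberg adjustment over 12824 genes and a threshold of 0.05. Standard errors are the log2 fold change over the square root of F. DESeq2 1.42.0 was an alternative. The equal-depth fit and the restriction to genes low in tumour cells were chosen after seeing the data. Named genes are Fto, defining markers, up to 4 members per list with the smallest p, the 12 largest changes each way against shNC and the 8 largest each way against shFto-1 (past the threshold, a mean of at least 10 CPM, no overlap), and up to 8 genes with no counts in a group. Some genes that this rule names are not reported here. Other list members named were chosen after their values were seen. The members and the gene lists were chosen with earlier results of these data known. The share called over all genes is the background for a list's counts. The 2 libraries of a group differed beyond sampling noise (chi-square over degrees of freedom 6.56, 11.3 and 4.95 for shFto-2, shFto-1 and shNC). Intervals cover counting error only, since reads without molecular identifiers are not independent molecules. The test was checked on simulated counts. Coordinates and promoters are from RefSeq, GRCm38.p6, and 12199 of the tested genes (95.1%) had coordinates.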

Additional observations from a re-analysis of the deposited data

Results flagged for a closer look

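The values below mark where T cells beside shFto-2 differed from those beside shFto-1, the same contrast against shNC in another hairpin line. By edgeR's test of that difference, 245 genes differed (1.91% of 12824), but 1 gene passed without shFto-1 replicate 1, where 1352 had an unadjusted p under 0.05.

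Among genes at a mean of at least 10 CPM, the largest rises of shFto-2 over shFto-1 were Nos2 at 1.56 on the log2 scale, Mx1 at 1.55, Acsl6 at 1.54 and Apol9b at 1.53. Nudcd1 followed at 1.40, Ccl2 at 1.33, Rsad2 at 1.30 and Apol9a at 1.27. Beside shFto-2, Acsl6 had 20.3 and 16.9 CPM, against 6.81 and 5.92 CPM beside shFto-1, and Nudcd1 had 27.9 and 32.0 CPM, against 9.80 and 13.4 CPM. Large falls were seen in Hbp1 at -2.56, Dgat1 at -1.51, Hist1h3e at -1.42 and N4bp2l1 at -1.41. Tnfrsf25 followed at -1.36, Itgb7 at -1.32 and Hist1h1d at -1.30. Dgat1 had 12.3 and 9.72 CPM beside shFto-2, against 39.9 and 21.7 CPM beside shFto-1, and Tnfrsf25 had 5.96 and 6.06 CPM, against 16.9 and 13.8 CPM. The rule that chose these genes required both shFto-2 libraries to lie on 1 side of both shFto-1 libraries, so that separation is no result. No group had the 4 samples that a search for a single sample far from the others needs.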

How the results depend on the processing

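The count of 4322 genes against shNC stayed between 3298 and 4202 when any 1 library was left out, and between 4190 and 4616 with DESeq2, library totals, RLE size factors, no filter, a filter at a mean of 10 CPM or the 4 libraries alone. It was 371 when restricted to genes under 1 CPM in both tumour groups, where fewer genes are tested. The share was also smaller there, 16.1% of 2306 genes against 33.7% of all tested. The balance turned, with 124 higher and 247 lower, against 2616 and 1706 over all tested genes. The median log2 fold change was -0.96 there, against -0.026 over all tested genes. The count against shFto-1, 245, was 1088 with DESeq2, 147 with RLE size factors, 838 with no filter, 688 with the stricter filter and 113 with the 4 libraries compared alone. It ranged from 1 (without shFto-1 replicate 1) to 507 (without shFto-2 replicate 1), and the cause was not tested. The deviations of same-numbered libraries correlated at -0.206 for shFto-2 with shNC, 0.368 for shFto-2 with shFto-1 and -0.324 for shFto-1 with shNC. With 2 libraries a group and no shared source in the labels, the numbers were not taken as pairs. With the replicate block, 4300 genes differed from shNC and 446 from shFto-1. With the shNC numbers crossed in the block, added after seeing the data, these counts were 4523 and 460. Leaving out 1 library reversed Col1a1 (-1.356 to 6.623), Xist (-0.3081 to 0.01615) and Dct (-0.3916 to 0.117), none of which passed in the full fit. The crossed block gave Col1a1 0.5578. Xist was at -0.4273 in the equal-depth fit, further from shNC than in the full fit. Of 2386 values of named genes against shNC, 2356 kept direction and call, 23 lost a call, 2 gained one and 5 were those reversals. Of 236 values against shFto-1, 33 lost the call. Of 982 list counts, 906 stayed within 1.5 times, and of 491 list medians, 114 moved by more than the spread between replicates. Depth limits genes under about 10 CPM, and shNC replicate 1 had the fewest counts, 2628158.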
